A study of Mus musculus with 12 samples.

Results

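The genes that encode the proteasome and its partners were followed in OT-II follicular helper T (Tfh) cells, taken as every gene of the count table whose symbol begins with Psm, one letter from a to g and a number, pseudogenes left out. This gave 50 genes of the 24561 in the table. They were 16 genes of the core particle, 3 of the immunoproteasome, 17 of the regulatory particle, 3 chaperones of regulatory particle assembly, 6 activators or inhibitors, 4 chaperones of core assembly, and Psmc3ip, a meiotic recombination factor that shares only the name pattern. Of the 50 genes, 48 passed the expression filter. The others were Psma8, the testis form of an alpha subunit, with at most 4 counts in any library, and Psmb11, the catalytic subunit of the thymic proteasome, with 0 counts in all libraries. The 2 pseudogene rows left out, Psma5-ps and Psmb6-ps, held at most 31 and 0 counts in a library.

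The study compared C57BL/6 OT-II T cells, which carry an ovalbumin-specific T cell receptor, with CD4-Cre alone (wild-type, labelled WT) or with CD4-Cre and 1 floxed Bcl6 allele, Bcl6 fl/+ (BCL6-insufficient, labelled HET). Both groups therefore carried the Cre transgene, whose Cd4 promoter acts in T cells and in their thymic precursors. Hosts of the cells were CD45.1 Sap-/- mice, whose own T cells lack the adaptor SAP. The antigen was NP-OVA, with LPS and alum as adjuvants, and the libraries come from a CXCR5hi PD-1hi lymph node gate taken on day 3 after it was given. Each group had 3 recipient mice with 2 technical repeats of about 200 cells each, or 12 libraries of 3343375 to 8315722 counts. The age of the mice and the number of donors are not given in the sources used here. Whether the recipients of a label shared a donor is therefore open here, and if they did, p-values measure only the spread between recipients.

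The targeted gene went against its label. Bcl6 stood at 150, 146 and 150 CPM (TMM-normalized counts in proportion to library size) in the mice labelled HET and at 54.8, 75.6 and 56.9 CPM in the mice labelled WT (log2 fold change 1.25, SE 0.12; edgeR's quasi-likelihood test, adjusted p = 6.3e-07). Reads of a deleted and an intact allele are not told apart in a count over the gene, so each direction below rests on the labels. Of 10 Tfh cell markers, all were detected. In the mice labelled HET, 3 were called higher (Bcl6, Icos and Maf) and 4 lower (Cd4, Cxcr5, Pdcd1 and Tox2). These calls were 70% of the list, against 18.0% of all 12719 genes tested. Cxcr5 and Pdcd1, whose proteins define the sort gate, had log2 fold changes of -0.40 and -0.42 (adjusted p = 0.00476 and 0.0042 from edgeR's test). The B cell marker list summed to 20.6 to 148.5 CPM in the mice labelled HET and 18.8 to 116 CPM in those labelled WT, with 0 of 8 tested genes called. The myeloid list did not overlap, at 107 to 112 against 83.7 to 89.2 CPM, with 7 of its 10 genes in the count table. Most of that sum was Cst3, which was not called, at 79.9 to 96.2 against 73.4 to 78.8 CPM. Of its 4 tested genes 1 was called, Lyz2, at 16.45, 3.67 and 3.19 against 0.0916, 2.04 and 1.58 CPM. Log2 fold changes lay above 0 in 3 of the 4 and below in 1, and Cd14 was at 0 in all 6 mice. Cytosolic ribosomal protein genes took 10.1% to 11.8% against 8.54% to 9.34% of the counts, which also did not overlap. The part of these differences in the results below was not tested, and in sorted bulk samples fewer cells of a type and less RNA per cell cannot be told apart.

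The proteasome degrades proteins tagged with ubiquitin. Its core particle is a barrel of alpha rings, which form the gate, around beta rings, which hold the catalytic sites, and in lymphocytes and after interferon 3 inducible beta subunits can replace the constitutive ones to form the immunoproteasome. The regulatory particle caps the barrel. Its lid removes ubiquitin, and its base binds the substrate and unfolds it with a ring of ATPases. Other caps, the activators, open the gate without using ATP.

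In the mice labelled HET, genes of the regulatory particle lay below those labelled WT, several past the test, and genes of the core particle lay on both sides. All 17 regulatory genes of the Psm name pattern had a log2 fold change below 0, between -0.76 and -0.05 with a median of -0.27, and 7 of them (41.2%) were called lower and 0 higher at an adjusted p under 0.05. Sem1, a lid subunit outside that pattern, was called higher (log2 fold change 0.35, adjusted p = 0.00841). Of the 14 widely expressed core genes, 7 lay below 0 and 7 above, between -0.25 and 0.14 with a median of 0.02. This split moved to 11 below and 3 above with log2(TPM + 1) (median -0.10) and to 10 and 4 without mouse HET 3 (median -0.06). edgeR called 0 of these core genes, though DESeq2 called 2, Psma1 and Psmb7, lower. Over all 12719 genes tested, 18.0% were called, 8.82% lower and 9.17% higher, and the median log2 fold change was 0.01. Over the 48 members tested, 10 (20.8%) were called lower and 3 (6.25%) higher, with a median of -0.18. With upper-quartile scaling the members called were 7 lower and 4 higher. Without mouse HET 1, 3 regulatory genes were called lower, without HET 2 or WT 3 there were 4, and with technical repeat 1 alone there were 2.

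**Figure D1:**
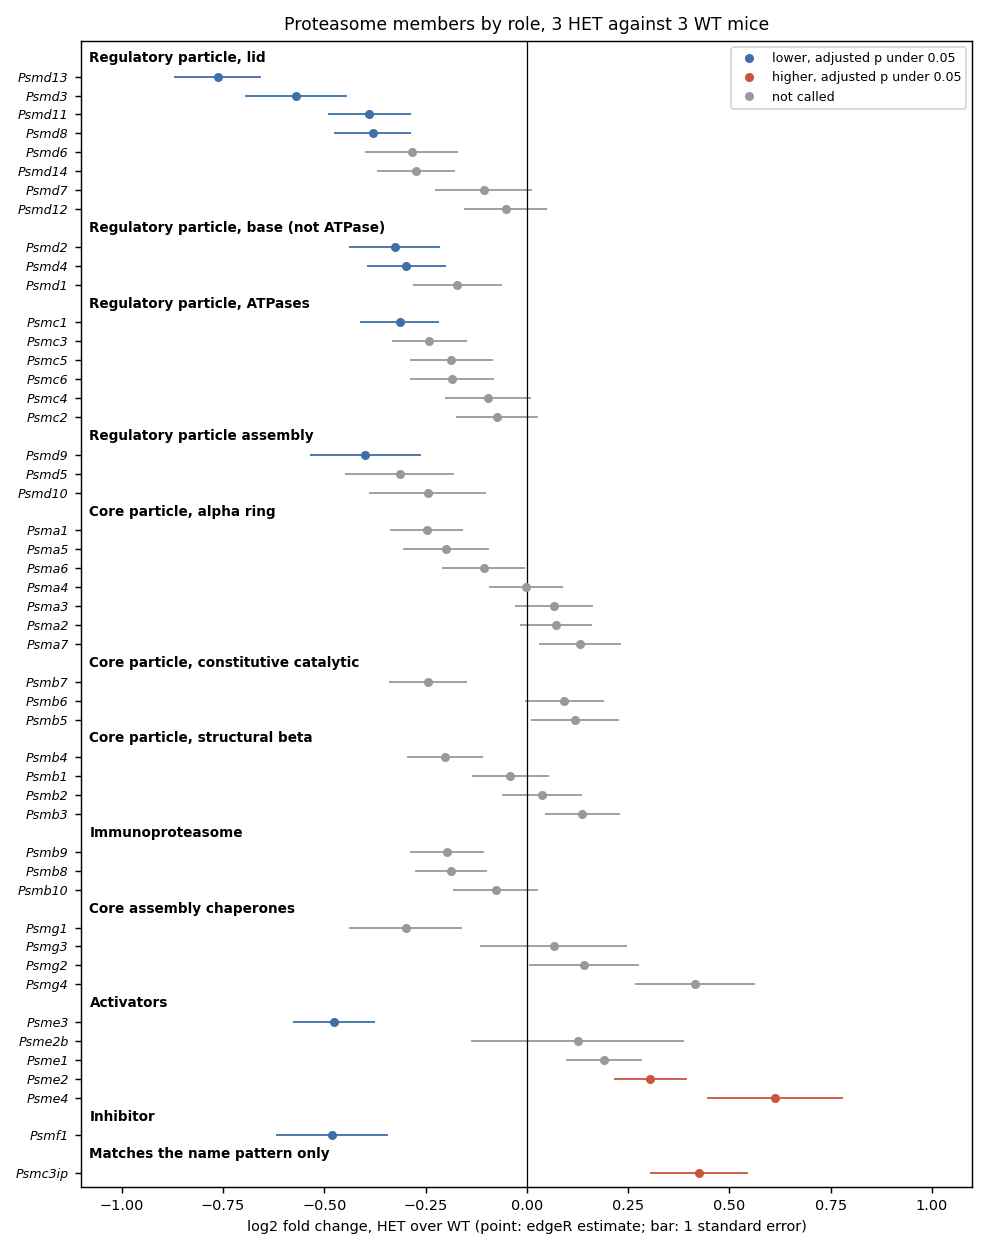
Log2 fold change of each tested member, HET over WT, as edgeR's estimate (points) with 1 standard error (bars), grouped by role and coloured by call at an adjusted p under 0.05. All 17 regulatory particle genes of the Psm name pattern, which leaves out Sem1, lie left of 0, with Psmd13 at -0.76, whereas the 14 core genes lie on both sides and none was called.

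The promoters of 42 members were found in RefSeq (45 windows of 250 bases before the start, GRCm38.p6) and searched on both strands for 3 motifs. TGACNNNGC, the core of the antioxidant response element, which Nfe2l1 and its relatives bind, was in 11.1% of the members' windows and 10.2% of all 32851 windows. GAAANNGAA, from the core of the interferon-stimulated element, was in 6.67% of the members' windows against 7.13% of all. TTCNNNGAA, a palindrome of the kind that STAT factors and BCL6 recognize, was in 4.44% against 7.02%. Of the 9 called-lower members with a window, 1, 2 and 0 held the 3 motifs in this order, counts too small to set against those shares. The windows below are shown because they belong to 2 constitutive catalytic subunits with the first motif, to 2 called members that hold a motif (Psmd4 and Psmd9) and to 2 called members of small p that hold none (Psmd11 and Psme3). Windows with more than 30 bases in annotated exons, among them those of Psmd13, Psmb8 and Psmb9, are not shown, and the Psmb5 window shown has 27 such bases. Capitals mark the motifs.
Psmb5 (chr14:54617996-54618245, minus strand): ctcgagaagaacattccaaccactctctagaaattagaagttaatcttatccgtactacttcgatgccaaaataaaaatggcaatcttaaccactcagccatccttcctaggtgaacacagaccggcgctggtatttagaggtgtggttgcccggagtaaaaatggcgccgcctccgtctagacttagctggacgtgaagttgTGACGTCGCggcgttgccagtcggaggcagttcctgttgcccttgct
Psmb6 (chr11:70525107-70525356, plus strand): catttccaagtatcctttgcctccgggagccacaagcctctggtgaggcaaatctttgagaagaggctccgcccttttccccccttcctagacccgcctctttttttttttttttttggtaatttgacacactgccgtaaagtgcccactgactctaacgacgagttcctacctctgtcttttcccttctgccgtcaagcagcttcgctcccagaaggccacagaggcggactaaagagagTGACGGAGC
Psmd4 (chr3:95042615-95042864, minus strand): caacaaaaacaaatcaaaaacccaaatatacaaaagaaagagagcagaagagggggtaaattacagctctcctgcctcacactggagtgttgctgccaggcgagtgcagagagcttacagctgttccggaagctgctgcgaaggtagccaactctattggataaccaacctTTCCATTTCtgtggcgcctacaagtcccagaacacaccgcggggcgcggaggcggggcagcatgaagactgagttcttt
Psmd9 (chr5:123227940-123228189, plus strand): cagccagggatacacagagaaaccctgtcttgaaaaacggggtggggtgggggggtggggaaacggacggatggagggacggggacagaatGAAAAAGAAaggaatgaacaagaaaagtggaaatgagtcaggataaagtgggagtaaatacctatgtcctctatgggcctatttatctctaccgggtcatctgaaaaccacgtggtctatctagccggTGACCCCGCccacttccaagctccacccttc
Psmd11 (chr11:80428365-80428614, plus strand): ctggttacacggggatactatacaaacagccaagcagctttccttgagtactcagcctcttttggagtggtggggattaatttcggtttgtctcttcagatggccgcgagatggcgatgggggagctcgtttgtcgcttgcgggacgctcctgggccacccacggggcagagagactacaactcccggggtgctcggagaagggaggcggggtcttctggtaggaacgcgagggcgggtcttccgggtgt
Psme3 (chr11:101315963-101316212, plus strand): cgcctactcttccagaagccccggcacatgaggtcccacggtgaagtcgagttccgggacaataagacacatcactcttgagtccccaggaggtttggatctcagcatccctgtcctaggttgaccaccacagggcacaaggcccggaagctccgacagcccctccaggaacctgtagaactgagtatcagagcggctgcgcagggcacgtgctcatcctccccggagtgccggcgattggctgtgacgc
The first motif begins 47 bases before the start of Psmb5, 9 before that of Psmb6 and 31 before that of Psmd9. Starts are those of RefSeq, and that of Psmd9 lies inside the longer gene span given below from GENCODE. The interferon-type motif begins 159 bases before the start of Psmd9 and, reversed, 79 before that of Psmd4. Only Psmd9 held both motifs, which do not overlap each other. A match is a description of the letters and not a bound site.

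Psmd13, a subunit of the lid, had the smallest p of the members (chromosome 7, 140881968 to 140898643, plus strand). It stood at 100.3, 126 and 106 CPM in the mice labelled HET and at 178, 183 and 202 CPM in the mice labelled WT. No mouse of one label reached the range of the other, and neither did any single library, at 84.3 to 139 against 171 to 209 CPM. It fell by 41.1% (log2 fold change -0.76, SE 0.11, adjusted p = 4.4e-05 from edgeR's test). The fold change kept its direction and its call in all 19 alternatives. Exons of Sirt3 overlap Psmd13 on the other strand and the strand setting of the counting is not stated. Sirt3 itself stood at 7.13 to 9.01 CPM with the HET label and 7.47 to 8.79 CPM with the WT label, with a log2 fold change of -0.04 (adjusted p = 0.945 from edgeR's test).

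Psmd3, a lid subunit (chromosome 11, 98682554 to 98695979), stood at 92.1, 98.8 and 135 CPM with the HET label and 166, 143 and 174 CPM with the WT label. Here mouse HET 3 lay closest to the other group, with no overlap between mice. Single libraries did overlap, at 82.4 to 144.5 against 138.1 to 176.7 CPM. The log2 fold change was -0.57 (SE 0.13, adjusted p = 0.00293 from edgeR's test), and the call held in all 19 alternatives. A gene listed on its other strand, Gm12356, was lower too, at 3.35 to 7.3 CPM against 9.07 to 16.1 CPM (log2 fold change -1.05, adjusted p = 0.0219).

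Psmd8, another lid subunit (chromosome 7, 29174188 to 29180701), stood at 196, 216 and 221 CPM with the HET label and 263, 266 and 295 CPM with the WT label. It fell by 23.2% (log2 fold change -0.38, SE 0.10, adjusted p = 0.00739), and the groups did not overlap. Psmd11 (chromosome 11, 80428615 to 80473248), a lid subunit that also touches the core, stood at 116, 125 and 142 against 170, 159 and 173 CPM. The difference was -0.39 on the log2 scale (SE 0.10, adjusted p = 0.0109 from edgeR's test), without overlap between mice. Single libraries of Psmd11 did overlap, at 110.2 to 154.5 against 153.5 to 182.3 CPM. The call of Psmd8 was lost with technical repeat 1 alone, and that of Psmd11 with repeat 1 alone, with log2(TPM + 1) and without mouse HET 1.

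edgeR did not call the other 4 lid genes. Of all 8, it called 4 lower (50%, against 8.82% of all genes tested). DESeq2 called 5 lower, and the replicate block or 12 libraries with the mouse as a random effect called 6. In that last fit the estimated correlation between repeats of a mouse was 0.0084, so repeats counted almost as separate animals. Psmd14, the enzyme that removes ubiquitin from the substrate, came closest, at 133, 141 and 135 CPM with the HET label and 165, 166 and 163 CPM with the WT label (log2 fold change -0.27, adjusted p = 0.0513). Psmd6 had a log2 fold change of -0.28 (adjusted p = 0.0896). Psmd7, the partner of Psmd14 in the lid, and Psmd12 had log2 fold changes of -0.11 and -0.05 (adjusted p = 0.595 and 0.775). All 3 of Psmd6, Psmd7 and Psmd12 had overlapping groups.

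In the base, 3 of 9 genes were called, each lower, where 8.82% of all genes tested were called lower. Psmc1, an ATPase whose tail reaches into the alpha ring (chromosome 12, 100110154 to 100123405), stood at 202, 224 and 223 CPM with the HET label and 243, 276 and 287 CPM with the WT label (log2 fold change -0.31, SE 0.10, adjusted p = 0.0272). Psmd4, a receptor for ubiquitin (chromosome 3, 95032694 to 95042614), stood at 159, 146 and 162 against 182, 189 and 202 CPM (log2 fold change -0.30, SE 0.10, adjusted p = 0.0366). Psmd2, a large scaffold that docks shuttle proteins (chromosome 16, 20651652 to 20663414), stood at 161, 163 and 180 against 195, 185 and 252 CPM (log2 fold change -0.33, SE 0.11, adjusted p = 0.0455). In each of these 3 genes all mice labelled HET lay below all mice labelled WT, as in 17.0% of all genes tested, and Psmd2 had the narrowest gap. Psmc1 was called in 2 of the 6 fits that left out 1 mouse, Psmd4 in 1 and Psmd2 in 3, and with GC and length trends removed Psmd4 (-0.19) and Psmd2 were not called. Without mouse WT 3 the log2 fold change of Psmd2 was -0.18, and that of Psmd4 was -0.07 with technical repeat 1 alone and -0.46 with repeat 2 alone.

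The other 5 ATPases ranged from -0.24 (Psmc3, adjusted p = 0.0755) to -0.07 (Psmc2, adjusted p = 0.678) on the log2 scale, and Psmd1, the second scaffold of the base, was at -0.17 (adjusted p = 0.307). Of all 17 regulatory genes, 10 (58.8%) had mice that did not overlap, each lower with the HET label. Over all genes tested, 34.4% did not overlap, 17.0% lower and 17.4% higher.

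**Figure D2:**
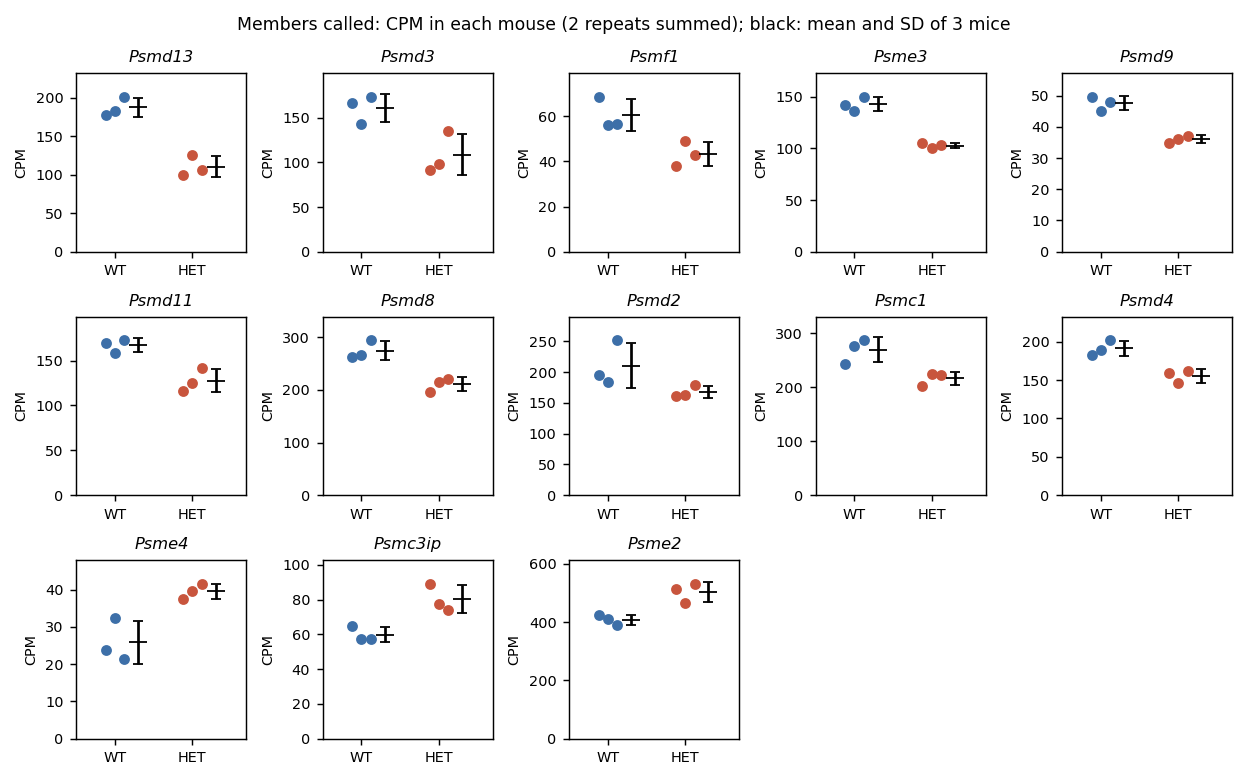
CPM of the 13 members called at an adjusted p under 0.05, one panel per gene with the vertical axis from 0, each coloured point a mouse (2 technical repeats summed) and black marks the mean and SD of 3 mice. The first 10 panels are lower and the last 3 higher in the mice labelled HET, and in none of them do the groups overlap, as in Psme3 at 100.1 to 105 against 136 to 150.2 CPM.

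A ratio within a library does not depend on the scaling between libraries. The summed CPM of the 17 regulatory genes over that of the 14 core genes was 0.584, 0.574 and 0.559 in the mice labelled HET and 0.683, 0.683 and 0.701 in the mice labelled WT, or 0.572 ± 0.0127 and 0.689 ± 0.0105 (SD, n = 3 mice). The groups did not overlap, and neither did the single libraries, with 6 at 0.537 to 0.587 and 6 at 0.681 to 0.715. Without Psmd13 the ratio was 0.538 to 0.56 against 0.643 to 0.659, again without overlap. With Sem1 added, chosen after its values were seen, the ratio was 0.628 to 0.673 against 0.742 to 0.763, also without overlap. The regulatory sum itself was 2453 to 2816 CPM with the HET label and 3057 to 3336 CPM with the WT label. The core sum overlapped, at 4200 to 5037 and 4477 to 4760 CPM. No p is given for these sums, since their genes were grouped with earlier results known. The regulatory genes have longer transcripts than the core genes (median of the longest transcript 1983 and 1220 bases) at a like GC content (49.7% and 49.2%). With GC and length trends removed, the median log2 fold change was -0.23 in the regulatory genes, 7 called lower, and -0.04 in the core genes, 2 called lower.

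**Figure D3:**
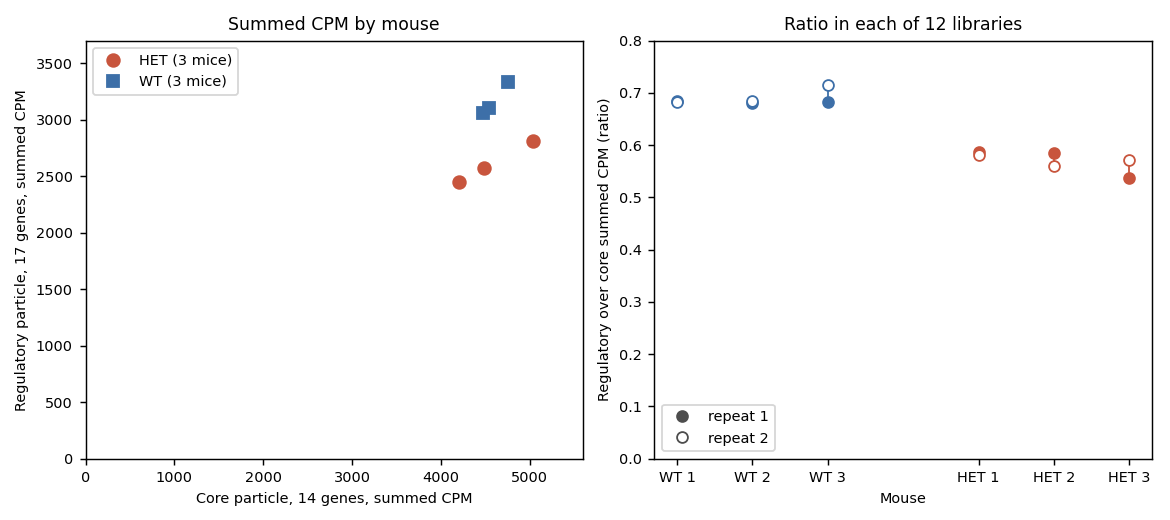
Left, summed CPM of the 17 regulatory genes (vertical axis) against that of the 14 core genes (horizontal axis) in each of 6 mice. Right, the ratio of both sums in each of the 12 libraries, filled for technical repeat 1 and open for repeat 2, where the HET libraries lie at 0.537 to 0.587 and the WT libraries at 0.681 to 0.715.

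The assembly chaperones of the regulatory particle followed it in sign. Psmd9 (chromosome 5, 123169413 to 123250131), which helps to build the ATPase ring, stood at 34.9, 36.2 and 37.2 CPM with the HET label and 49.7, 45.2 and 47.8 CPM with the WT label (log2 fold change -0.40, SE 0.14, adjusted p = 0.0444). The groups did not overlap, but the call was held in 6 of 19 alternatives and in none of the 6 fits without 1 mouse. Psmd5 and Psmd10, the other chaperones of the base, had log2 fold changes of -0.31 (adjusted p = 0.111) and -0.25 (adjusted p = 0.267), each without overlap.

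Genes of the core particle lay closer to 0. In the alpha ring, whose tails close the gate, the largest difference was that of Psma1, at 276, 297 and 310.1 CPM with the HET label and 339, 343 and 367 CPM with the WT label. The groups did not overlap, and the log2 fold change of -0.25 (SE 0.09) missed the threshold (adjusted p = 0.0617 from edgeR's test), though it was past it in 8 of 19 alternatives. The other 6 alpha genes lay between -0.20 (Psma5) and 0.13 (Psma7), all with overlapping groups. Among the beta genes without a catalytic site, Psmb4 was furthest from 0, at 241, 266 and 266 CPM with the HET label and 289, 320.4 and 281 CPM with the WT label (log2 fold change -0.20, SE 0.09, adjusted p = 0.146). With technical repeat 1 alone Psmb4 was at -0.005, and with repeat 2 alone at -0.35, called lower (adjusted p = 0.045 from edgeR's test). Psmb1, Psmb2 and Psmb3 lay between -0.04 and 0.14.

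The catalytic subunits come in 3 pairs, in which the inducible member takes the place of a constitutive one during assembly. Psmb5, the constitutive chymotrypsin-like subunit, stood at 135, 130.2 and 164 CPM with the HET label and 126, 127 and 142 CPM with the WT label. Psmb8, its inducible counterpart, stood at 685, 673 and 780.4 against 813, 768 and 852 CPM. Neither was called, and the groups overlapped in both (log2 fold change 0.12, adjusted p = 0.505, and -0.19, adjusted p = 0.154), though Psmb8 was called lower without mouse HET 3 (-0.26, adjusted p = 0.0415 from edgeR). Psmb8 shares exon sequence with Gm20496, listed on the other strand at 197 to 259.6 against 305 to 356 CPM, and reads of both cannot be told apart if strand was not used.

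Psmb6, the constitutive caspase-like subunit, stood at 282, 280 and 343 CPM with the HET label and 280.5, 290 and 278 CPM with the WT label (log2 fold change 0.09, adjusted p = 0.567). Psmb9, which replaces it, stood at 275, 279 and 279 against 319, 295 and 342 CPM, without overlap (log2 fold change -0.20, SE 0.09, adjusted p = 0.145). Psmb7, the constitutive trypsin-like subunit, stood at 167, 172 and 184 against 209, 194 and 217 CPM, also without overlap (log2 fold change -0.24, SE 0.10, adjusted p = 0.0836). Psmb7 shares exon sequence with Nek6 on the other strand, which stood at 114 to 128 against 99.4 to 116 CPM, so reads of both may be mixed in Psmb7 and in its ratio to Psmb10. Psmb10, which replaces Psmb7, stood at 127, 130.5 and 155 against 145, 139 and 151 CPM (log2 fold change -0.08, adjusted p = 0.673). With GC and length trends removed, the log2 fold changes of Psmb8, Psmb9 and Psmb10 shrank to -0.09, -0.07 and -0.002. That of Psmb7 was then -0.30, called lower (adjusted p = 0.0378 from edgeR's test). With technical repeat 1 alone Psmb7 was at -0.04 and with repeat 2 alone at -0.39, and it was called in 5 of 19 alternatives.

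Within a mouse, the log2 ratio of Psmb8 to Psmb5 was 2.35, 2.37 and 2.25 with the HET label and 2.69, 2.59 and 2.59 with the WT label, a difference of -0.30. That of Psmb9 to Psmb6 was -0.04, 0.00 and -0.30 against 0.19, 0.02 and 0.30, a difference of -0.28. That of Psmb10 to Psmb7 was -0.39, -0.40 and -0.25 against -0.53, -0.49 and -0.52, a difference of 0.16 in the other direction. In each of the 3 pairs the mice of both labels did not overlap (two-sided exact permutation test, p = 0.1 and adjusted p = 0.1 over the 3 pairs, the smallest p that 3 mice against 3 allow). Each difference was smaller or of the other sign with 1 of the technical repeats. With repeat 2 alone the first was -0.18 (p = 0.2) and the second -0.15 (p = 0.5), both by the same exact test, and with repeat 1 alone the third was -0.08 (p = 0.3). Per length of the main annotated transcript, Psmb8 stood at 2.62 to 2.85 times Psmb5 with the HET label and at 3.32 to 3.57 times with the WT label. Psmb9 stood at 0.481 to 0.589 and 0.601 to 0.726 times Psmb6, and Psmb10 at 0.671 to 0.742 and 0.613 to 0.632 times Psmb7. By this measure the message of the inducible form was above that of its partner in 1 of the 3 pairs, in all 6 mice. In CPM not scaled by length, Psmb9 stood above Psmb6 in all mice labelled WT and below it in all mice labelled HET.

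**Figure D4:**
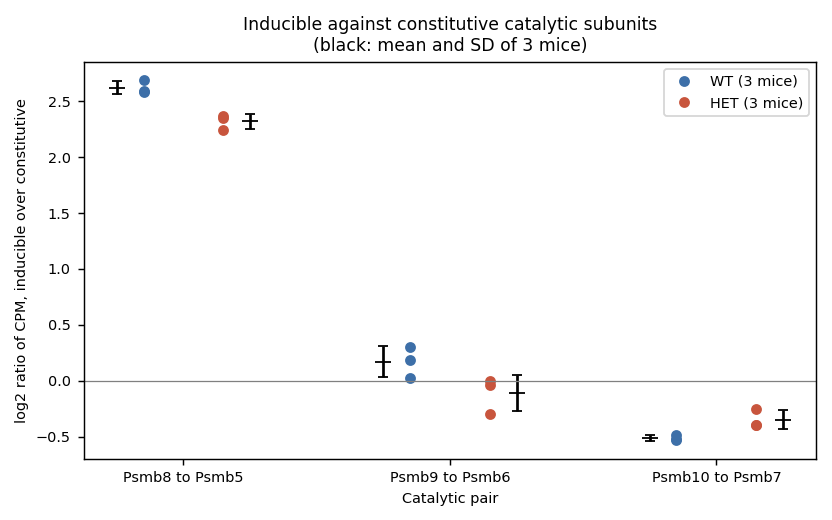
Log2 ratio of the CPM of the inducible to the constitutive catalytic subunit (vertical axis) in each of the 3 pairs, points for the 3 mice of each label and black marks for mean and SD. The mice labelled HET lie below those labelled WT for Psmb8 to Psmb5 (2.25 to 2.37 against 2.59 to 2.69) and for Psmb9 to Psmb6, and above them for Psmb10 to Psmb7.

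The activators went both ways. Psme3, the nuclear relative of the interferon-inducible activators (chromosome 11, 101316213 to 101323537), stood at 105, 100.1 and 103 CPM with the HET label and 142, 136 and 150.2 CPM with the WT label. It fell by 28.1% (log2 fold change -0.48, SE 0.10, adjusted p = 0.00207 from edgeR's test), with no overlap between mice or between single libraries (84.8 to 122 against 136 to 151 CPM). The call was lost with technical repeat 1 alone, at an adjusted p of 0.109, and held in the other 18 alternatives.

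Psme2, 1 of the 2 subunits of the interferon-inducible activator (chromosome 14, 55587441 to 55591113), was higher, at 513, 465 and 533 CPM with the HET label and 424, 410.3 and 389 CPM with the WT label. The log2 fold change was 0.30 (SE 0.09, adjusted p = 0.0205), and the call held in 12 of 19 alternatives. With log2(TPM + 1) it was 0.19. Psme1, its partner in the same ring, stood at 420, 371 and 447 against 366, 348 and 370.2 CPM, without overlap but not called (log2 fold change 0.19, adjusted p = 0.166). Psme2b, a near-identical copy of Psme2 that can share its reads, stood at 9.05 to 12.5 against 7.73 to 13.3 CPM. Within a mouse, the ratio of Psme2 to Psme3 CPM, not scaled by length, was 4.64 to 5.18 with the HET label and 2.59 to 3.01 with the WT label.

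Psme4, a large single-chain activator of the nucleus (chromosome 11, 30771726 to 30880361), stood at 37.4, 39.5 and 41.6 CPM with the HET label and 23.8, 32.4 and 21.5 CPM with the WT label. Its log2 fold change was 0.61 (SE 0.17, adjusted p = 0.0134), with the call held in 14 of 19 alternatives. Psmf1, an inhibitor of the core particle (chromosome 2, 151715812 to 151744186), stood at 38.1, 48.9 and 43 against 68.7, 56.2 and 56.5 CPM (log2 fold change -0.48, SE 0.14, adjusted p = 0.0173), lower in all mice labelled HET and held in 15 of 19 alternatives. With technical repeat 1 alone it was -0.25.

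The 4 chaperones that help to assemble the alpha ring, Psmg1 to Psmg4, were not called by edgeR. Psmg4 came closest, at 42.4, 49.1 and 60.6 CPM with the HET label and 36.9, 35.7 and 41.1 CPM with the WT label (log2 fold change 0.42, SE 0.15, adjusted p = 0.0548), without overlap. It was called in 5 of 19 alternatives, while its log2 fold change was 0.27 without mouse HET 3 and 0.24 with GC and length trends removed. Psmc3ip, which is no proteasome subunit, was called higher, at 89.2, 77.5 and 74.1 against 64.7, 57.3 and 57.5 CPM (log2 fold change 0.42, SE 0.12, adjusted p = 0.0163). The call held in 14 of 19 alternatives and in 3 of the 6 fits without 1 mouse. It shares exon sequence with Mlx on the other strand, which stood at 72.6 to 84.7 against 89.9 to 101 CPM.

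Per length of the main annotated transcript, core genes ranged from 117 (Psma3) to 606 (Psmb3) CPM per kb in the mice labelled WT and regulatory genes from 39.8 (Psmd1) to 184 (Psmc3), so that the ranges overlapped. In the same mice, Psme2 (424 ± 18.3, SD, n = 3) and Psme1 (325 ± 10.7) were far above Psme3 (53.6 ± 2.64) and Psme4 (3.99 ± 0.882). The inducible Psmb8 (498 ± 25.8) stood above Psmb9 (236 ± 17.4) and Psmb10 (110.4 ± 4.61). No annotated main transcript was at hand for Psmd4, Psmd8 and Psmd10, which have no value per length here.

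Genes outside the family were read from the same fit. Of 18 proteasome partners, 3 were called lower and 1 higher (22.2% called, near the 18.0% of all genes tested). Without mouse WT 2 there was 1 call, and without HET 2 or WT 3 there were 2. Ubqln1, a shuttle that carries ubiquitinated proteins to the regulatory particle, stood at 53.6, 48.8 and 51.7 CPM with the HET label and 94, 93.5 and 107 CPM with the WT label (log2 fold change -0.93, SE 0.12, adjusted p = 9.9e-06). Txnl1, a thioredoxin bound to the lid, was lower too, at 84.6, 93.6 and 95 against 107, 111 and 122 CPM (-0.32, SE 0.11, adjusted p = 0.0444). Sem1, the smallest lid subunit, whose name falls outside the Psm pattern, was higher at 372, 352 and 346 against 272, 269 and 296 CPM (0.35, SE 0.09, adjusted p = 0.00841), so the lid was not lower in every subunit. Pomp, the chaperone of beta ring assembly, was at 0.27 (adjusted p = 0.0509), and Adrm1, a ubiquitin receptor of the base, at -0.27 (adjusted p = 0.076).

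Of 14 genes of ubiquitin supply, 1 was called lower and 2 higher (21.4%, near the 18.0% of all genes). Vcp, the segregase that extracts ubiquitinated proteins, stood at 281, 255 and 288 against 360, 373 and 417 CPM (-0.48, SE 0.09, adjusted p = 0.001). Rbx1, the RING subunit of cullin ligases, and Nedd8, their activating modifier, were higher (0.50, adjusted p = 0.000612, and 0.34, adjusted p = 0.013). Among 9 transcription regulators only Irf8 was called, at 12.6, 22.2 and 21 against 44.6, 23.8 and 25.8 CPM (-0.76, SE 0.23, adjusted p = 0.026). This call was lost without mouse WT 1, without HET 1, with either technical repeat alone and with log2(TPM + 1), and 11.1% called is below the 18.0% of all genes. Nfe2l1, the factor that drives proteasome genes when proteolysis is blocked, stood at 13.2 to 19 against 17 to 20.1 CPM (-0.17, adjusted p = 0.632).

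Of 11 genes that load peptides on class I molecules, the next step for products of the immunoproteasome, 4 (36.4%) were called lower and 1 (9.09%) higher, against 8.82% and 9.17% of all genes tested. These 5 calls became 3 without mouse WT 1 or with GC and length trends removed, and 2 with technical repeat 1 alone or log2(TPM + 1). Tap2, a chain of the peptide transporter, stood at 90.4, 114 and 92.3 against 193, 179 and 193 CPM (-0.93, SE 0.11, adjusted p = 3.9e-06). Tapbp and Tapbpl, the editors of peptide loading, had log2 fold changes of -0.54 (adjusted p = 0.000836) and -0.52 (adjusted p = 0.0174). The remaining gene called lower was H2-K1 (-0.31, adjusted p = 0.0201), and Calr, a chaperone of loading, was higher (0.42, adjusted p = 0.00511). Tap1, the neighbour of Psmb9 that shares exon sequence with it on the other strand, stood at 172 to 195 against 183 to 219 CPM and was not called (-0.15, adjusted p = 0.33).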

How the data were processed

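RNA was sequenced from CXCR5hi PD-1hi OT-II Tfh cells of 3 mice labelled HET and 3 labelled WT, with 2 technical repeats each. The authors prepared SMART-Seq2 libraries, used FastQC, Hisat2 2.2.1 (alignment to GRCm38) and HTSeq, and deposited raw counts per gene. The annotation release and strand setting are not given in the sources used here. The authors also deposited TPM values, whose gene lengths are not stated.

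Repeats were summed per mouse because they are not separate animals. The 6 mice were compared with edgeR 4.0.16 (R 4.3.3, TMM, filterByExpr, quasi-likelihood test) and p-values were adjusted by Benjamini-Hochberg over all 12719 genes tested, never over the members alone. Library totals ranged from 3343375 to 8315722 counts. Reads carry no molecular identifiers, so counts are not counts of molecules. Coordinates and lengths came from GENCODE for GRCm38, in which 551 of 24561 symbols were not found. Alternatives used DESeq2 1.42.0, limma 3.58.1 (voom, and log2(TPM + 1)) and mgcv 1.9.3. Scripts were tested on simulated data.

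Values per mouse are given for the 6 catalytic subunits, every member called, and the member of each role that differed most. Outside the family, called genes are named, at most 3 per list and direction, and 1 of them is not reported here. H2-K1 and the genes named as not called were added after their values were seen. The members and lists were chosen with earlier results of these data known.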

Additional observations from a re-analysis of the deposited data

Results flagged for a closer look

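In 46 groups of 6 libraries (23 quantities in each label), 4 held a library far from the other 5 by Dixon's test, where chance gives about 2.3. Psmb4 stood at 349 CPM in repeat 2 of mouse WT 2 and at 268 to 294 CPM in the other 5 libraries labelled WT. Psmb7 stood at 246 CPM in repeat 1 of mouse HET 3, the shallowest library, and at 150 to 178 CPM in the other 5 labelled HET. With that library left out, an alternative chosen after seeing the data, Psmb7 was called lower. Psme2 stood at 413 CPM in repeat 1 of mouse HET 2, against 511 to 540.1 CPM in the others. The ratio of the regulatory to the core sum was 0.715 in repeat 2 of mouse WT 3, against 0.681 to 0.684 in the other 5 libraries labelled WT. The part of these libraries in the differences between labels was not tested further.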

How the results depend on the processing

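With technical repeat 1 alone 1059 genes were called over all genes, with repeat 2 alone 1446 and with log2(TPM + 1) 1305, against 2288, and 1424 to 1972 without 1 mouse. Members called lower (10) numbered 2 with repeat 1, 6 with log2(TPM + 1), and 4 (without HET 1) to 13 (without HET 3) without 1 mouse. Members called higher (3) numbered 1 with repeat 2, 0 with log2(TPM + 1), 5 with GC and length trends removed with the replicate block, and 0 (without WT 3) to 3. Regulatory genes called lower (7) numbered 2 with repeat 1, and 3 to 9 without 1 mouse. All 17 stayed below 0 in 17 of 19 alternatives, with 2 above 0 with repeat 1 and 1 without HET 1. Core and immunoproteasome genes called lower (0) numbered 2 with DESeq2, repeat 2, GC and length trends removed (with or without the block) or the shallowest library left out, 1 with 12 libraries, a minimum of 10 counts or the block, and 0 to 2 without 1 mouse. With the trends removed and the block, 1 was called higher. The members' median (-0.18) was -0.0629 with repeat 1 and -0.225 (without HET 3) to -0.108 (without HET 1) without 1 mouse, and that of the core and immunoproteasome genes (-0.04) was -0.142 with log2(TPM + 1) and -0.110 (without HET 3) to 0.00397 (without HET 1) without 1 mouse. The Psmb10 to Psmb7 difference (0.16) was -0.0791 with repeat 1, and with repeat 2 those of Psmb8 to Psmb5 (-0.30) and Psmb9 to Psmb6 (-0.28) were -0.18 and -0.15. Over all alternatives, called genes ranged from 1 to 7 (4) among proteasome partners, 1 to 5 (3) in ubiquitin supply, 0 to 2 (1) among transcription regulators and 2 to 8 (5) in class I presentation. The causes were not tested. With the replicate block, 14 members were called lower and 4 higher. Same-numbered mice correlated at 0.085, -0.028 and 0.025 in their deviations from the group means. Values from so few mice cannot show whether or not the numbers pair the mice. Depth limits statements on Psma8 and Psmb11.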
